A study of Homo sapiens with 5 samples.

Results

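The regions described here are the strong peaks of steroidogenic factor-1 (SF-1) that occurred in the basal Perseus list and in no other list of the series. They were selected on measured values: a rank within the best 24.9% of that list, at the limit given with the processing, and no overlap, not even of 1 bp, with any peak of the other 3 lists. The rule found 660 unique peaks, of 6616 peaks in the basal Perseus list and of 30372 peaks in all 4 lists. The other 990 peaks of such rank, called strong here, overlapped a peak of at least 1 other list and are called shared peaks. Because rank and overlap chose the peaks, values of rank, width and overlap are given as a description, without a test.

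SF-1 was mapped by chromatin immunoprecipitation followed by sequencing in the line H295R/TR SF-1, which derives from the human adrenocortical tumor cell line H295R and makes extra SF-1 under doxycycline. The basal SF-1 groups had no doxycycline, the overexpressed SF-1 groups had it for 3 days, and chromatin of each was precipitated with an anti-SF-1 antibody from Millipore or from Perseus Proteomics. The authors called each of the 4 lists jointly on 3 libraries against input DNA, for which 2 libraries are labelled. All groups thus stem from 1 cell line, each list is a single value of its condition, and no error between cultures can be given. The read depth behind each list is not known, and since the lists hold positions and ranks only, the labelled SF-1 dosage could not be checked against expression of NR5A1, the gene of SF-1.

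As a nuclear receptor, SF-1 binds DNA as a monomer, at a nuclear receptor core sequence extended at its 5′ end. It drives the genes of steroid hormone synthesis in adrenal cortex and gonads and is needed for the development of both organs. Like other transcription factors it is found both at promoters, many of which lie in CpG islands, and at distal elements within and between genes.

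The SF-1 consensus searched here was NCAAGGNCN, in which the first and second N stand for C or T and the last N for A or G, on either strand and without mismatch. The sequences below are those of the 5 best-ranked unique peaks that hold it. They are shown because they are the strongest of these sites with the sequence the factor is known to bind. Each is 61 bases of hg19 centred on the consensus, printed 5′ to 3′ on the strand that carries it, with the consensus in capitals.
Rank 102, chr7:65895192-65895252, plus strand: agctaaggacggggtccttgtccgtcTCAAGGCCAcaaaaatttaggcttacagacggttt
Rank 113, chr19:30302275-30302335, minus strand: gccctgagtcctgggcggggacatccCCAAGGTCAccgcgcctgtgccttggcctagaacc
Rank 124, chr12:52455356-52455416, plus strand: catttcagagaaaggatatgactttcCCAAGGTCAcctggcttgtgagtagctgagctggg
Rank 164, chr2:85684401-85684461, minus strand: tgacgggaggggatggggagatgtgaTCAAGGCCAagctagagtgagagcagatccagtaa
Rank 182, chr11:120400776-120400836, minus strand: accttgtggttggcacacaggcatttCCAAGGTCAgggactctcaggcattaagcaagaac

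The peak of rank 102 lay in the annotated bodies of LINC00174 and RABGEF1P2. The peak of rank 113 was 623 bp upstream of the transcription start site (TSS) of CCNE1, which encodes cyclin E1, a driver of entry into S phase. The peak of rank 124 lay between genes, 38759 bp downstream of the TSS of NR4A1, an orphan nuclear receptor that responds to corticotropin in adrenal cells, and 7655 bp upstream of ATG101, an autophagy gene. The peak of rank 164 was intergenic, and that of rank 182 lay in an intron of GRIK4, a glutamate receptor gene.

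3 whole peaks are shown as examples, and do not represent the unique peaks in their proportions. Of the 660 unique peaks, 134 held the consensus, 6 held 2 copies, and 252 were CpG-rich, as defined below. Of the 408 that were not CpG-rich, 112 held the consensus. No site with neither feature is shown. The 3 peaks were chosen after the values were seen, except the first, which is the best-ranked unique peak with 2 copies. Letters are those of the plus strand of hg19.
Rank 404, chr1:42002501-42002749, an intronic site of HIVEP3 with 2 copies of the consensus in capitals: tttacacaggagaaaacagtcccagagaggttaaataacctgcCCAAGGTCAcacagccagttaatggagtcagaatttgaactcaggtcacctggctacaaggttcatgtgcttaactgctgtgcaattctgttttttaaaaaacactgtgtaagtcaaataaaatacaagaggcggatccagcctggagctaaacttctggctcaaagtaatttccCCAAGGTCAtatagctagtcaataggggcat
Rank 805, chr15:74615501-74615749, a site in CCDC33 and 44362 bp downstream of the TSS of CYP11A1, with the consensus in capitals: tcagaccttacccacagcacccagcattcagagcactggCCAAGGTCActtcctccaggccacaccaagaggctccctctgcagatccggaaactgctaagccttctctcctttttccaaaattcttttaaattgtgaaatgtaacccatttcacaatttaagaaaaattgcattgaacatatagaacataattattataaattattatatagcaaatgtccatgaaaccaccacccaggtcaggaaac
Rank 812, chr7:148581751-148581999, a CpG-rich site 462 bp upstream of the TSS of EZH2 without the SF-1 consensus, with 4 copies of the SP/KLF sequence GGGCGG in capitals, of which a pair overlaps by 1 base: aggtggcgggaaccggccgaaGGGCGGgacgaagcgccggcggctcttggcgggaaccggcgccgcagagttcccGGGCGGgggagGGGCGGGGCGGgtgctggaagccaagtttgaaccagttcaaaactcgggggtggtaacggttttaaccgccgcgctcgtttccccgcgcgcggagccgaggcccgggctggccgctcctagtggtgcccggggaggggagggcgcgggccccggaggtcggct

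Unique peaks were rare at the very top of the list and common further down. Over 10 bins of equal size by rank, 15 peaks of the best bin were unique, that is 9.09%, and 92 peaks of the last, or 55.8%. In the whole basal Perseus list 62.3% of peaks overlapped no other list. The median rank was 968 for unique and 695 for shared peaks, and the best-ranked unique peak stood at 57. Median width was 199 bp (quartiles 149 and 249) against 249 bp (quartiles 199 and 349). The peaks nearest the rank limit were 1 at rank 1649, between genes and 196197 bp upstream of LPP, and 1 at the limit itself, in repeated sequence of chromosome 9. Just outside it, rank 1651 lay in CYP19A1, the aromatase gene, 80548 bp from its outermost TSS, and rank 1652 in ATP8B1.

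**Figure D1:**
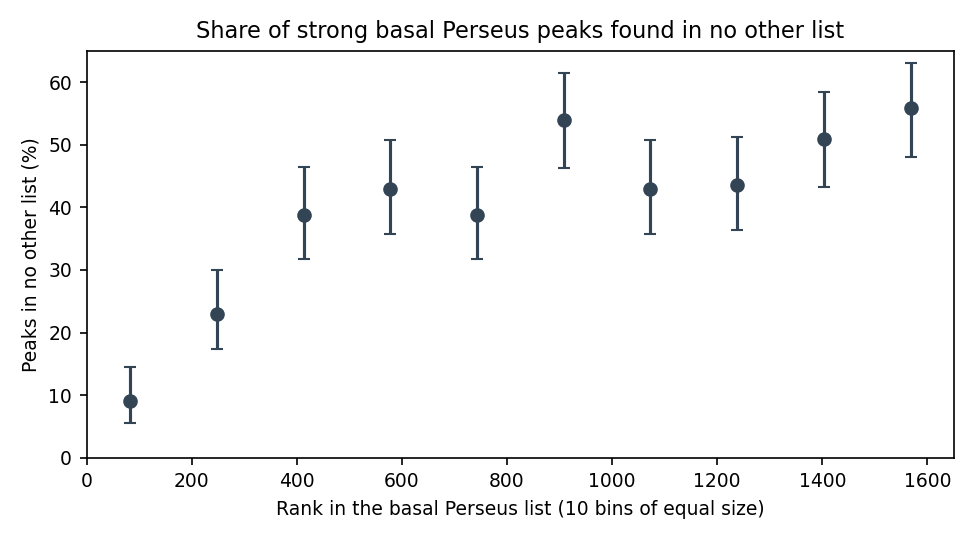
Share of basal Perseus peaks found in no other list (vertical axis, %) against rank (horizontal axis, 10 bins of equal size). Points are shares and bars their 95% Wilson intervals, which rise from 9.09% in the first bin to 55.8% in the last.

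The border between unique and shared was partly a matter of a few bases. Peak starts and ends lay on a grid of 50 bp, so that the smallest overlap was 49 bp. In 15 of the 990 shared peaks the widest overlap was of this size, in 10 of them with the overexpressed Perseus list, and the median was 199 bp. The best-ranked of the 15 were chr7:82072201-82072599, chr10:101190651-101191049 and chr22:21356201-21356299. On the other side, 9 unique peaks were separated by 1 bp from a peak of another list, 8 of them from the overexpressed Millipore list and 1 from the overexpressed Perseus list. The best-ranked of these lay at the promoters of C9orf40 (rank 255), of GCH1, which encodes the first enzyme of tetrahydrobiopterin synthesis (rank 437), and of ADAR, an RNA-editing enzyme (rank 653).

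Most unique peaks had no peak of another list within 10 kb, and most had one within 100 kb. A peak of another list lay within 500 bp of 75 unique peaks (11.4%, 95% Wilson interval 9.16 to 14.0), within 10 kb of 271 (41.1%) and within 100 kb of 599 (90.8%). Counted by gene and from the TSS, 30.4% of all protein-coding genes had a peak of another list within 10 kb, and 76.3% within 100 kb. Those are shares of genes, not of peaks, and so no baseline for the unique peaks. The median distance was 45526 bp to the overexpressed Perseus list, 44676 bp to the overexpressed Millipore list and 129801 bp to the basal Millipore list. These lists hold 7453, 11910 and 4393 peaks, so their distances are not on one scale. Among the shared peaks, 867 of 990 (87.6%) overlapped the overexpressed Perseus list, 389 (39.3%) the overexpressed Millipore list and 170 (17.2%) the basal Millipore list. 83 unique peaks (12.6%) lay within 1000 bp of another basal Perseus peak and 40 (6.06%) within that distance of a shared one, and such neighbours are not independent sites.

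**Figure D2:**
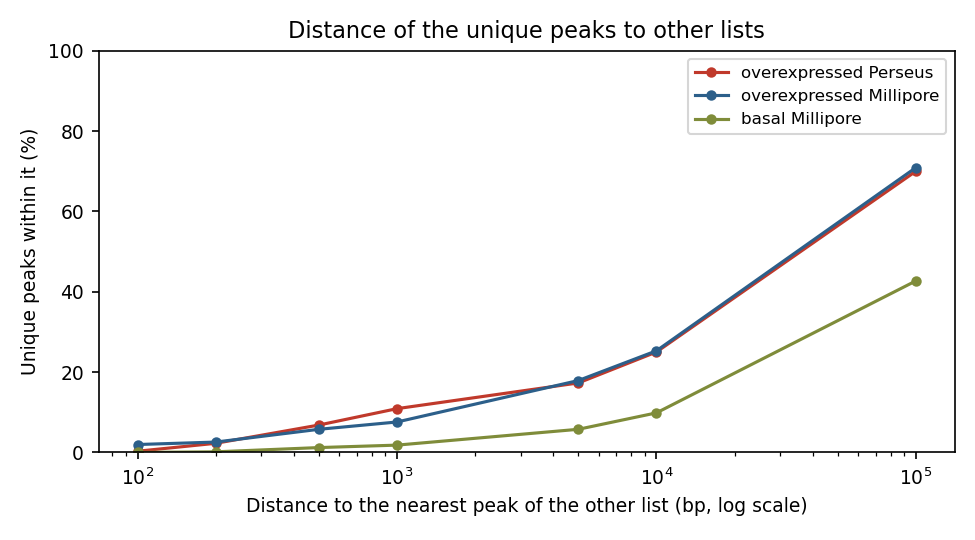
Share of the 660 unique peaks (vertical axis, %) with a peak of the named other list within the distance on the horizontal axis (bp, log scale). At 100 kb the overexpressed Perseus and Millipore lists reached 462 and 468 of the peaks, and the basal Millipore list 282.

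Promoter sites made up 33.0% of the unique peaks, a share that could not be told from that of the shared peaks. Of the 660 unique peaks, 218 had their centre no more than 1 kb from a protein-coding TSS (33.0%, 95% interval 29.5 to 36.7), against 363 of 990 shared peaks (36.7%) and 26.4% of all basal Perseus peaks. The difference, unique minus shared, was -3.64 percentage points with a 95% Newcombe interval from -8.26 to 1.07. Without peaks in repeated sequence or near long runs of unknown bases it was -8.11 (interval -13.1 to -3.04), and within 5 strata of GC content it turned to 6.39 (interval 2.60 to 10.2). All intervals cover counting error and treat peaks as independent.

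The promoter sites lay close to the start. Their median distance from the TSS was 224 bp to either side, 132 of the 218 were within 300 bp, and 99 were upstream and 118 downstream. They belonged to 215 genes. Counted per gene, 250 protein-coding genes had a unique peak within 1 kb of the TSS, and for 185 of them no peak of another list and no shared basal Perseus peak was within that distance. A peak of another list lay that close for 65 of the 250 genes, against 16.0% of all protein-coding genes. Since the rule left out peaks that overlap another list, these counts are partly set by it.

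The best-ranked of these promoters, after the rule stated for naming peaks, were those of BCL9, a coactivator of beta-catenin (rank 97, 296 bp upstream), POP4, a subunit of RNase P (rank 107, 40 bp upstream), CCNE1 (rank 113, 623 bp upstream), SLC49A4, a membrane transporter (rank 115, 59 bp downstream) and HOXC13, a homeobox factor (rank 128, 40 bp upstream). Of these only the CCNE1 site held the SF-1 consensus. The BCL9 site had 35.3% of its 32 bp words elsewhere in the genome. The nearest peak of another list lay 15501 bp from the BCL9 site, 22651 bp from POP4, 5351 bp from CCNE1, 12351 bp from SLC49A4 and 12051 bp from HOXC13.

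Further promoters among the 218, picked after their values were seen to show the range of functions, were those of the hypoxia factor HIF1A (rank 586, 244 bp downstream), the forkhead factor FOXO3 (rank 888, 263 bp upstream) and CRTC3, a coactivator of CREB (rank 1398, 170 bp downstream). The potassium channel gene KCNK3, expressed in adrenocortical cells, had a unique peak at rank 570, 785 bp downstream of its TSS. PURB, which encodes a purine-rich element binding protein, had a pair of them, at rank 133 (4 bp downstream) and rank 196 (421 bp upstream). Genes of protein synthesis and turnover occurred as well, with the translation factor EIF5A (rank 1361, 332 bp downstream) and the proteasome subunit PSMB7 (rank 1225, 27 bp upstream). No copy of the SF-1 consensus was present in any of these 8 peaks.

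Farther than 1 kb from a TSS, 305 unique peaks lay within gene bodies and 137 between genes. In all, 197 unique peaks had their centre in no annotated gene body (29.8%), against 33.0% of shared peaks and 30.6% of the whole list. Unique minus shared, this was -3.18 percentage points (interval -7.68 to 1.42). Its direction depended on the peaks compared: against peaks shared with a Millipore list it was 5.76 (interval 0.466 to 10.9), and without repeated sequence and peaks near long runs of unknown bases 3.09 (interval -1.48 to 7.72). Of the unique peaks 148 (22.4%) were over 100 kb from any protein-coding TSS, against 22.6% of shared peaks. The centre lay in an exon in 23.3% of unique and 30.3% of shared peaks (difference -6.97, interval -11.2 to -2.60).

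The SF-1 consensus was present in 134 of the 660 unique peaks (20.3%, 95% interval 17.4 to 23.5). In equally wide windows located 5 kb to either side of the unique peaks it occurred in 29 of 1319 (2.20%), so that the share in the peaks was 9.23 times that in the windows (difference 18.1 percentage points, interval 15.1 to 21.4). Shared peaks held it in 301 of 990 cases (30.4%), and their windows in 2.29%. The difference between unique and shared peaks was -10.1 percentage points (interval -14.2 to -5.83). The share in the unique peaks was close to that of the whole basal Perseus list, 21.6%.

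This difference kept its direction in every alternative of rank, overlap, sequence form and strata, but its size depended on the peaks and the sequence read. Among the best-ranked 12.5% of the list it was -6.45 (interval -12.5 to 0.0920). Within 4 strata of peak width it was -6.88 (interval -11.2 to -2.51). With only the central 150 bp of each peak read, it was -5.91 (interval -9.68 to -1.99), and against peaks shared with a Millipore list -22.3 (interval -27.7 to -16.8). The sequence TCAAGGTCA alone was found in 6.52% of unique and 8.69% of shared peaks (difference -2.17, interval -4.70 to 0.504). By rank, the consensus was in 19.2% of unique (28 of 146) and 101 of 404 shared peaks of the best-ranked of 3 equal strata, in 22.6% and 35.2% of the middle stratum, and in 18.8% and 33.0% of the last. The interval of the difference held 0 in the first stratum (-12.9 to 2.35) and excluded it in the others.

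The 134 unique peaks with the consensus held 140 copies. CCAAGGTCA accounted for 53 copies (37.9%, interval 30.2 to 46.1), TCAAGGTCA for 44 (31.4%) and TCAAGGCCA for 17 (12.1%). In the shared peaks the same forms made up 30.9%, 26.5% and 7.46% of 362 copies. Copies lay at a median of 46.5 bp from the peak centre in unique and 47.0 bp in shared peaks, and 57.1% and 54.1% of copies were within 50 bp of it. More than 1 copy was rare: 6 unique peaks (0.909%) held 2, against 37 shared peaks (3.74%) with 2 or more (difference -2.83, interval -4.29 to -1.36). Shared peaks were wider, and the part of width in this difference was not tested. The 6 peaks were in introns of HIVEP3 (rank 404), LGALS8 (rank 457), SSBP2 (rank 581), PPP1R16B (rank 695) and ALLC (rank 1111) and, at rank 796, in an exon of an unnamed gene at chr17:42357101-42357399. The ALLC peak came after the 5 that the naming rule took, and was added after its values were seen.

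Among the unique peaks the consensus was less frequent at promoters than elsewhere. It was found in 24 of the 218 unique peaks within 1 kb of a TSS (11.0%, interval 7.51 to 15.9) and in 110 of the 442 farther away (24.9%, interval 21.1 to 29.1), a difference of 13.9 percentage points (interval 7.72 to 19.4). Composition gave the same picture. Of the 252 CpG-rich unique peaks 22 held the consensus (8.73%), against 112 of the 408 others (27.5%). At promoters the unique peaks also differed from the shared ones, of which 25.9% held the consensus (difference -14.9, interval -20.8 to -8.45). In gene bodies away from a TSS the shares were 27.5% and 42.9% (difference -15.4, interval -22.2 to -8.20). Between genes they were 19.0% and 17.1% (difference 1.89, interval -5.86 to 10.4), and there repeated sequence made up 8.03% of unique peaks and 60 of 240 shared peaks. The part of repeated sequence in that result was not tested.

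**Figure D3:**
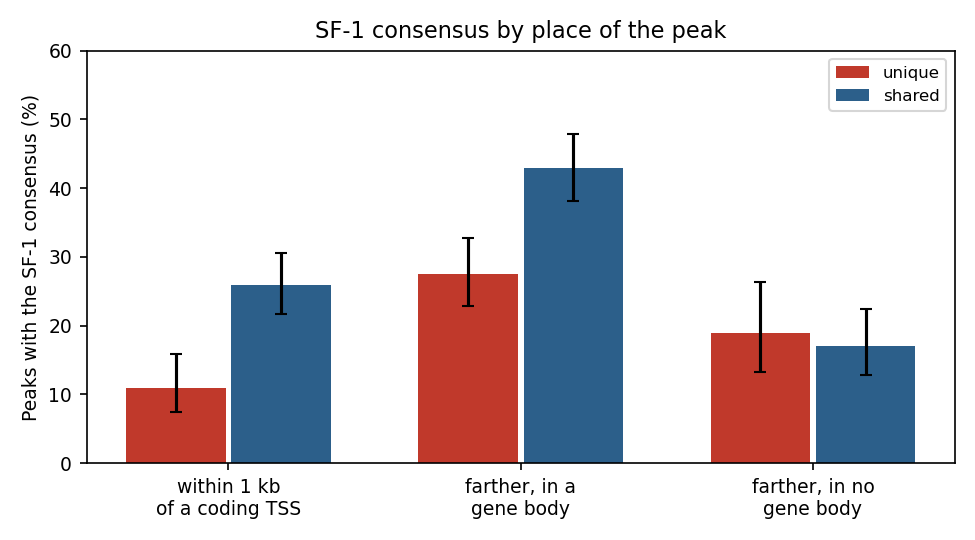
Share of strong basal Perseus peaks with the SF-1 consensus (vertical axis, %) by place of the peak, for unique and shared peaks, with 95% Wilson intervals as bars. The unique peaks stand at 11.0% near a TSS, 27.5% in gene bodies and 19.0% between genes, and the shared peaks at 25.9%, 42.9% and 17.1%.

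Base composition set both kinds of strong peak apart from their surroundings. A peak was called CpG-rich at a GC content of 55% or more and an observed to expected CpG ratio of 0.6 or more. This held for 252 unique peaks (38.2%), 479 shared peaks (48.4%) and 30.2% of the whole list, against 2.20% of the windows 5 kb from the unique peaks. The difference between unique and shared peaks was -10.2 percentage points (interval -15.0 to -5.32). Within 4 strata of peak width it was -3.50 (interval -8.49 to 1.49), and within 5 strata of GC content 3.52 (interval 0.817 to 6.22). Median GC content was 51.5% in unique and 62.7% in shared peaks, and 42.8% in the windows of the unique peaks. The GC content of the unique peaks was widely spread, with quartiles of 38.3% and 68.3%. Near a TSS the unique peaks were CpG-rich in 83.9% of cases, and farther away in 15.6%.

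**Figure D4:**
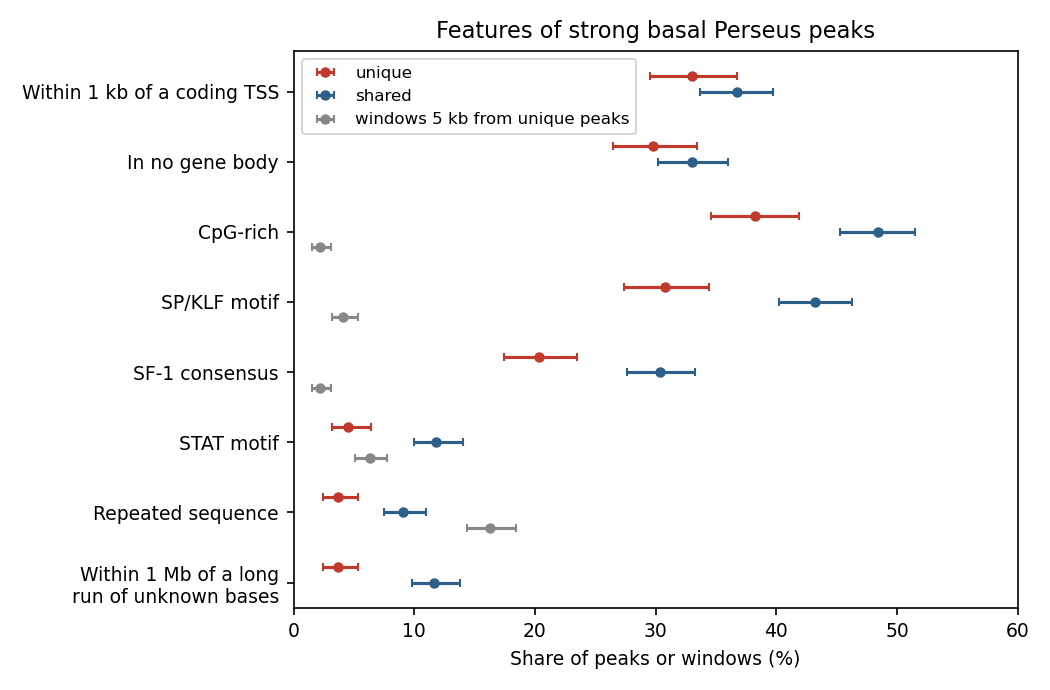
Shares of strong unique peaks, strong shared peaks and windows of the same width 5 kb from the unique peaks (horizontal axis, %) that have each feature on the vertical axis, with 95% Wilson intervals as bars. Windows are shown where the feature is one of sequence. Unique peaks lie below shared peaks in CpG-rich sequence (38.2% and 48.4%), the SP/KLF motif (30.8% and 43.2%) and the SF-1 consensus (20.3% and 30.4%), and above the windows in each of these.

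Of 14 further sequences searched on both strands, 5 differed in share between unique and shared peaks, all with the lower share in the unique ones. With only the central 150 bp of each peak read, 4 differed, and not all in that direction. Among them the AP-1 sequence had the higher share in unique peaks (difference 2.17, interval 0.227 to 4.36). So had the GATA sequence (difference 1.06, interval 0.191 to 2.28). GGGCGG, bound by the SP and KLF factors of many promoters, was in 30.8% of unique and 43.2% of shared peaks (difference -12.5, interval -17.1 to -7.74) and in 4.09% of the windows. Near a TSS it was found in 146 of 218 unique and 254 of 363 shared peaks, and the interval of that difference held 0 (-10.9 to 4.67). Farther away it was in 12.9% and 27.8%. Within strata of GC content the difference over all strong peaks was -1.84 (interval -5.50 to 1.82), and within strata of width -2.41 (interval -7.10 to 2.27).

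The STAT sequence TTCNNNGAA was in 4.55% of unique and 11.8% of shared peaks (difference -7.27, interval -9.82 to -4.63). It stood at 6.29% in the windows of the unique peaks and at 11.5% in those of the shared peaks. Without repeated sequence and peaks near long runs of unknown bases the difference was -1.98 (interval -4.21 to 0.355), and over GC strata -10.8 (interval -13.4 to -8.08). The TEAD sequence GGAATGN, its N being C or T, was in 33 unique and 79 shared peaks (difference -2.98, interval -5.31 to -0.510), and without those peaks its difference was -0.972 (interval -3.24 to 1.42). The nuclear receptor core AGGTCA, which is part of some forms of the SF-1 consensus, was in 23.6% against 29.5% (difference -5.86, interval -10.1 to -1.49). In the central 150 bp of the peaks its difference was -0.556 (interval -4.42 to 3.43), and over width strata -3.57 (interval -8.06 to 0.922). It was larger without repeated sequence and peaks near long runs, -8.06 (interval -12.6 to -3.36), and over GC strata, -7.62 (interval -11.9 to -3.36). A direct repeat of a looser form of this core, with 1 base between, was in 2 unique and 14 shared peaks, 0.303% against 1.41% (interval -2.08 to -0.133). Its interval held 0 in the central 150 bp (-1.58 to 0.0654) and over GC strata (-1.67 to 0.00806). It excluded 0 over width strata (-1.89 to -0.141) and without repeated sequence and peaks near long runs (-2.50 to -0.276). The looser form was NGGNCA, its first N being A or G. With the interval widened for all 20 shares compared, only GGGCGG and TTCNNNGAA still differed among these sequences.

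The NRF1, ETS, E-box and cAMP response sequences were more frequent in the unique peaks than in their windows, and the interval of each difference between unique and shared peaks held 0. Each of these sequences contains CpG, and 38.2% of unique peaks but 2.20% of their windows were CpG-rich. The part of base composition in the differences from the windows was not tested. The NRF1 sequence was in 4.85% of unique peaks and in 0 of their 1319 windows, which allows a share of up to 0.227%, the ETS sequence CCGGAAGT in 1.82% against 0.0758% of windows, and the E-box CACGTG in 5.91% against 1.59%. The cAMP response element TGACGTCA was in 9 unique peaks (1.36%) and in 0.0758% of windows. For AP-1, spelled TGANTCA, unique peaks (6.52%) and their windows (6.07%) could not be told apart. The same held for the GATA sequence AGATAAG, with 1.97% in the peaks and 3.26% in the windows. It held too for the NFY sequence, CCAATNNG, with 6.82% and 6.90%. The consensus of the neuron-restrictive silencer factor NRSF/REST, with at most 4 mismatches, was in 0 of 660 unique peaks, which allows a share of up to 0.455% (3 counts of the total), and in 5 of 990 shared peaks (0.505%). It was in 0.181% of the whole basal Perseus list and in 0.0758% of the windows. The interval of the difference between unique and shared peaks held 0 (-1.18 to 0.142). It excluded 0 narrowly over GC strata (-0.860 to -0.00845) and over width strata (-0.934 to -0.0106). These intervals rest on the counts of 0 and 5. The CTCF-type sequence, tied to neither factor, was in 1 unique peak (0.152%), 7 shared peaks (0.707%) and 0.423% of the whole list. The interval of its difference between unique and shared peaks held 0 (-1.31 to 0.235).

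Repeated sequence was scarcer in the unique than in the shared peaks. A peak was called repeated when at least 50% of its 32 bp words occurred elsewhere in the genome. This held for 24 unique peaks (3.64%), 90 shared peaks (9.09%) and 4.41% of the whole list (difference between unique and shared -5.45, interval -7.74 to -3.08), and for 16.3% of the windows 5 kb from the unique peaks. The deposited lists do not state how reads that map to several places were treated. A peak edge within 1 Mb of a run of at least 1 Mb of unknown bases, mostly centromeres and short arms, was likewise counted for 24 unique peaks (3.64%), 115 shared peaks (11.6%) and 4.22% of the list (difference -7.98, interval -10.4 to -5.46). Against peaks shared with a Millipore list both differences changed sign, to 1.92 (interval -0.103 to 3.83) and 1.06 (interval -1.16 to 3.09), with 0 inside either interval.

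The 3 best-ranked unique peaks lay near such runs all the same. Rank 57, chr10:42391701-42391999, lay 36766 bp from such a run and had 42.2% of its words elsewhere. Rank 95, chr4:49515651-49515949, lay 144169 bp from one and had 74.3% of its words elsewhere, and rank 96, chr9:66462401-66462599 in LINC01410, lay 994722 bp from one and had 52.4%. Each had a peak of the overexpressed Perseus list nearby, at 2701, 2401 and 501 bp. The other peaks among the 10 best were the 5 promoters named above and those of rank 102 and 124, of which the former had 16.7% of its words elsewhere and the latter none.

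Unique peaks were spread unevenly over the chromosomes, and chromosomes 9 and 19 led in both kinds of strong peak. Chromosome 9 held 87 of them (13.2%), chromosome 7 held 64, and chromosomes 3 and 12 held 59 each. Per Mb of known sequence chromosome 9 carried 0.724 unique and 1.14 shared peaks, chromosome 19 carried 0.681 and 1.49, and chromosome X 0.0331 and 0.106. Among chromosomes with over 50 strong peaks, the share that was unique ran from 25.9% on chromosome 2 (interval 16.3 to 38.4) to 52.7% on chromosome 3 (interval 43.5 to 61.7). The copy number of these chromosomes in the cell line was not measured here. Windows of 1 Mb with a unique peak numbered 475, of which 352 held 1 and 43 held 3 or more. The fullest window, chromosome 16 from 33000000 to 33999999, held 6 unique and 10 shared strong peaks, and 3 of the 6 were repeated sequence. Of the others, windows on chromosome 9 from 94000000 and from 99000000 held 5 each, none of them repeated.

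**Figure D5:**
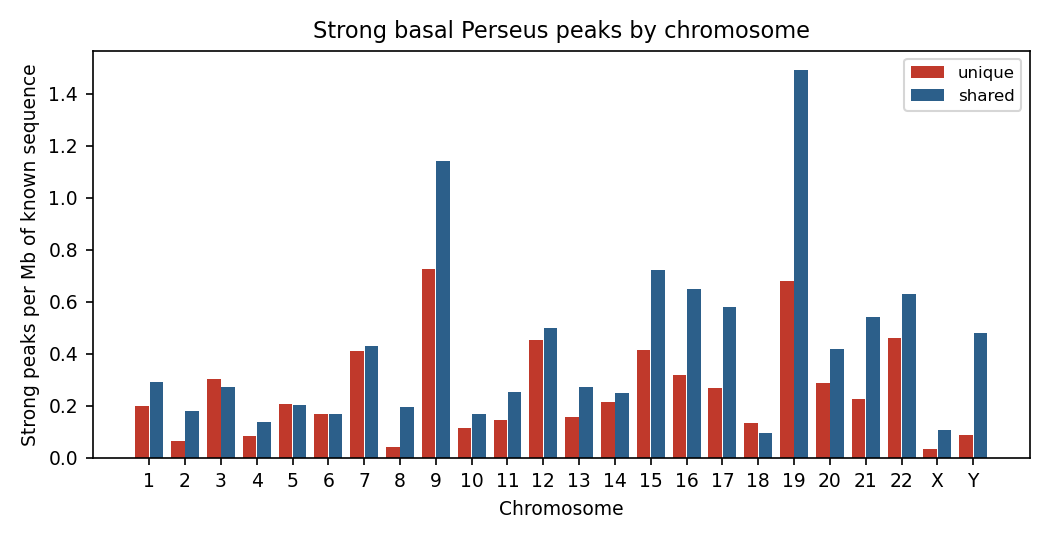
Strong basal Perseus peaks per Mb of known sequence (vertical axis) on each chromosome (horizontal axis), for unique and shared peaks. Chromosomes 9 and 19 carry the most of both kinds, with 0.724 and 0.681 unique peaks per Mb.

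Genes of adrenal function had a unique peak in their neighbourhood at a share close to that of all protein-coding genes. Of 20163 protein-coding genes, 8.18% had a unique peak within 100 kb of the TSS, and of 120 genes in 6 lists of adrenal and steroid function 13 did (10.8%). By list it was 4 of 20 genes of steroid synthesis, 1 of 20 genes of cholesterol supply, 4 of 23 adrenal and gonadal regulators, 1 of 18 genes of corticotropin and cAMP signalling, 3 of 21 adrenocortical tumor genes and 0 of 18 genes whose response to SF-1 dosage the study discusses. With such small lists these counts are a description. Within 10 kb of the TSS there were 3 listed genes, and 2.03% of all protein-coding genes had a unique peak that close. They are described because the naming rule takes them.

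The first was FDX1, which encodes the ferredoxin that passes electrons to the mitochondrial steroid hydroxylases. Its unique peak, rank 759, chr11:110300501-110300899, was centred 28 bp downstream of the TSS, had a GC content of 71.9% and no SF-1 consensus. The nearest peak of another list was 80701 bp away, in the overexpressed Millipore list. The second was CCNE1 (rank 113, above). The third was CITED2, a coactivator required for adrenal development, with a peak of rank 1555, chr6:139696401-139696699, 765 bp upstream of the TSS and without the consensus. A peak of the overexpressed Millipore list lay 1301 bp from it.

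Farther away, within 100 kb of the TSS, the unique peak downstream of CYP11A1, which makes the first step of steroid synthesis, stood among many sites of the other lists. Within 100 kb of this TSS there were 3 basal Perseus, 5 overexpressed Perseus, 4 basal Millipore and 16 overexpressed Millipore peaks, the nearest of another list 3351 bp away. At NR2F2, a nuclear receptor that can bind the same DNA as SF-1, the case was the opposite: 4 basal Perseus peaks and 0 peaks of the other lists lay within 100 kb. The strong unique peak among them was rank 1163, chr15:96884051-96884199, 14958 bp downstream of the TSS, without the consensus. The unique peak at the PSMB7 promoter was also 91949 bp downstream of the TSS of NR5A1 itself. The remaining listed genes were HSD17B1, HSD11B2, STARD3, NR4A1, PDE11A, CACNA1D and ZNRF3, and those near PDE11A were a pair of peaks on either side of the OSBPL6 start, of which 1 held the consensus.

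Of the genes with a unique peak within 100 kb, 1576 (95.5%) also had a peak of another list within that distance, against 76.3% of all protein-coding genes. Within 10 kb it was 214 of 410 genes (52.2%), against 30.4% of all genes. At 196 genes no peak of another list and no shared basal Perseus peak lay within 10 kb. The rule, which left out peaks overlapping another list, bears on these counts too.

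In promoter and CpG-rich share, the strong unique peaks of the basal Perseus list were nearer to overexpressed Perseus than to basal Millipore ones. This did not hold for every share: for the AP-1 and TEAD sequences the intervals of the differences from both lists held 0. The strong unique peaks of the overexpressed Millipore list were not compared. The same rule gave 643 peaks in the overexpressed Perseus list and 1101 in the basal Millipore list. Since the lists differ in length, equal ranks need not mean equal strength. Promoter sites made up 33.0% in the basal Perseus list, 29.7% in the overexpressed Perseus list (difference 3.33, interval -1.71 to 8.34) and 2.54% in the basal Millipore list (difference 30.5, interval 26.8 to 34.2). CpG-rich sequence made up 38.2%, 40.6% (difference -2.41, interval -7.69 to 2.89) and 0.636% (difference 37.5, interval 33.9 to 41.3). The SF-1 consensus was in 20.3%, 14.5% (difference 5.84, interval 1.72 to 9.93) and 10.4% (difference 9.86, interval 6.37 to 13.5). With the interval widened for 20 shares, the first of these differences held 0 (-0.534 to 12.2). The NRF1 sequence was in 4.85%, 1.40% (difference 3.45, interval 1.58 to 5.48) and, in the basal Millipore list, 0 of 1101, which allows up to 0.272%.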

How the data were processed

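Peak lists of 4 groups were used, for each of which the authors pooled 3 libraries and called peaks against input, after mapping Illumina reads to hg19 with ELAND and calling with CisGenome. The deposited column 4 is a rank score from 1 upwards, whose basis is not given in the sources used here, and the deposited column 5 is a constant score of 1000, not used. The depth of the lists is unknown.

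Peaks were compared with the GRCh37 sequence and GENCODE version 44 mapped to it. TSS are the outermost starts of protein-coding genes, measured from the peak centre. Strong peaks are those of rank 1650 or less. Shares carry 95% Wilson intervals and differences 95% Newcombe intervals, over strata Mantel-Haenszel ones, since no replicates exist for a test between conditions. Beside a count of 0, the limit given is 3 counts of the total. The background were windows of equal width 5 kb to each side, not matched for base composition. The members, gene lists and measures were chosen with earlier results of these data known.

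The named peaks were the 10 best-ranked, the 5 best-ranked with the consensus, with 2 copies and within 1 kb of a TSS, those within 10 kb of a listed gene, the 3 nearest to another list, the 3 smallest overlaps and 2 on each side of the rank limit. Others are said to have been picked later, and some items are not reported here. Counting was tested on simulated data. Alternatives covered rank limit, overlap, distance, sequence form and strata. Software was Python 3.11.15 with samtools 1.23.1, pysam 0.24.0, numba 0.67.0, scipy 1.17.1, pandas 2.3.3 and numpy 2.4.6.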

Additional observations from a re-analysis of the deposited data

How the results depend on the processing

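No paired analysis was possible because each list was called on pooled libraries, and for the same reason leaving out a replicate was not possible. Of 78 differences under an alternative 60 kept their direction and their side of the threshold, and 2 changed sign with 0 inside the interval before and after: promoter sites in the best-ranked 12.5% of the list (1.08) and peaks in no gene body without repeated sequence and peaks near long runs (3.09). Of 9 recounts of the other sequences 5 stayed within 1.5 times. The strata of peak width were added after seeing the data. All differences are unique minus shared peaks, in percentage points.

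For promoter sites the interval excluded 0 with the best-ranked 50% of the list (-9.39), without unique peaks within 500 bp of another list (-6.92), against peaks shared with the overexpressed Perseus list (-5.15) and without repeated sequence and peaks near long runs (-8.11). Over GC strata the difference turned to 6.39. For peaks in no gene body it excluded 0 in the best-ranked 12.5% of the list (-8.55), against peaks shared with overexpressed Perseus (-4.98), over GC strata (-7.47) and without promoter sites (-7.28), and it turned to 5.76 against peaks shared with a Millipore list. For the SF-1 consensus it held 0 in the best-ranked 12.5% (-6.45) and for TCAAGGTCA alone (-2.17). For CpG-rich peaks it held 0 over width strata (-3.50), and over GC strata the difference turned to 3.52, where the strata fix most of the measure. Against peaks shared with a Millipore list, repeated sequence (1.92) and long runs (1.06) turned. The number of other sequences that differed, 5, was 2 in the best-ranked 12.5%, 9 in the best-ranked 50%, 2 with intervals for all shares together and 3 without repeated sequence and peaks near long runs. In the central 150 bp it was 4, but these were not all among the 5. AP-1 (2.17) and GATA (1.06) then had the higher share in unique peaks. Apart from the alternatives' own construction, the cause was not tested.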

Other observations

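The 3464 weaker unique peaks, those ranked beyond the limit in the basal Perseus list and found in no other list, were less often promoter sites than the strong unique peaks. Of them 19.5% lay within 1 kb of a protein-coding TSS, against 33.0% of the strong ones (difference strong minus weaker 13.5 percentage points, 95% Newcombe interval 9.78 to 17.4), and 20.7% were CpG-rich, against 38.2% (difference 17.5, interval 13.6 to 21.4). GGGCGG was in 13.4% of them, against 30.8% (difference 17.4, interval 13.8 to 21.1). The SF-1 consensus differed less, with 16.1% against 20.3% (difference 4.19, interval 1.04 to 7.64, and -0.550 to 9.63 when widened for 20 shares). The median width of the weaker unique peaks was 99 bp, and that of the strong unique peaks 199 bp. The part of width in these differences was not tested. Words of the mitochondrial genome were found in 8 of the 990 strong shared peaks and in 0 of the 660 strong unique ones, which allows a share of up to 0.455% (3 counts of the total). In the whole basal Perseus list 0.121% of peaks held them.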
